A study of Mus musculus with 12 samples.

Results

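The genes described here are 10 genes that mark astrocytes, the glial cells that wrap synapses and blood vessels, in RNA of the mouse amygdala: Apoe, Gfap, Aqp4, Slc1a2, Slc1a3, Aldh1l1, Gja1, S100b, Glul and Sox9. They were chosen by name, and each was found once by its Ensembl identifier among the 47729 genes of the deposited table. RNA was taken from amygdala tissue cut on both sides from a brain slice in 12 young adult female C57/BL6 mice. The labels give these mice no transgene and no treatment. All were bought at one age from one breeder, had no litters, and passed an elevated plus maze, a light/dark box and a three-chamber social test before decapitation. The labels hold a predicted anxiety state for 11 of them: 3 mice were less anxious (mice 3, 7 and 12), 4 were anxious (mice 1, 4, 8 and 11) and 4 were more anxious (mice 2, 6, 9 and 10). The study made these states from tertiles of the second principal component of these same libraries, so a comparison of the groups is not independent of expression and the groups are no treatment. In a principal component analysis of variance-stabilized counts of the 11 mice made here, the second component did not order them fully by state: mouse 6, more anxious, scored 0.280, between the less anxious mice and the anxious mice 1 (−4.40) and 11 (−2.88). Mouse 5 carries no state in the labels. The study left it out as an outlier in its principal component analysis. Its library had the fewest genes with a read, 23768 against 26378 to 28196 in the others. The values of mouse 5 are given on their own.

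Astrocytes clear glutamate from the synapse through the transporters encoded by Slc1a2 (GLT-1) and Slc1a3 (GLAST), turn it into glutamine with glutamine synthetase (Glul), and couple to each other through gap junctions built of connexin 43 (Gja1). Their endfeet on blood vessels carry the water channel Aqp4. Apoe encodes apolipoprotein E, the main protein of the particles that carry cholesterol from astrocytes to neurons. Gfap is an intermediate filament that rises in reactive astrocytes, and S100b is a calcium-binding protein. Aldh1l1 is an enzyme of folate metabolism, and Sox9 is a transcription factor of the glial lineage. Apoe is also made by microglia and choroid plexus, S100b and Glul also by some oligodendrocytes, and Gfap and Sox9 also by ependymal cells, so none of the values below belongs to one cell type alone. In whole tissue, fewer astrocytes and less RNA per astrocyte cannot be told apart.

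The stretches before the RefSeq start sites of Apoe, Slc1a3 and S100b are shown, Apoe because it leads the group and the other two because their levels did not overlap between the more and the less anxious mice and their RefSeq start sites lie within 43 bases of the 5' end of the GENCODE gene. Each is the 250 bases before the start site in RefSeq's table for GRCm38.p6, read 5' to 3' on the gene's strand: Apoe at chr7:19699189-19699438 (minus strand), Slc1a3 at chr15:8710808-8711057 (minus) and S100b at chr10:76253586-76253835 (plus). Capitals mark matches, on either strand, to 5 short motifs of general or glial promoters, and no match overlapped that of another motif. The TATA box was searched for with the letters TATAAA and the GC box, a site of the Sp1 family, with the letters GGGCGG. The letters of the CCAAT box are those of its name. The STAT motif, read by factors downstream of cytokine receptors, was searched for with TTCNNNGAA, and the motif of the SOX family with AACAAT.
Apoe: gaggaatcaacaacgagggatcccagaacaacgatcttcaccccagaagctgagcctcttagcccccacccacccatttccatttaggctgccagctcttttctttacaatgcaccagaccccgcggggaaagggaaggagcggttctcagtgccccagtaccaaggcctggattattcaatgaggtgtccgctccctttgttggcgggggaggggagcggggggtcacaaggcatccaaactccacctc
Slc1a3: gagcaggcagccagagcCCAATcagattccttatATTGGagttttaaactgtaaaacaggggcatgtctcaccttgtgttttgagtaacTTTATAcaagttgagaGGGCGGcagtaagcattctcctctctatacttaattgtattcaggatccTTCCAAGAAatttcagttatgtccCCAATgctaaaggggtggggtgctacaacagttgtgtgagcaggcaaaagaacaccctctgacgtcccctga
S100b: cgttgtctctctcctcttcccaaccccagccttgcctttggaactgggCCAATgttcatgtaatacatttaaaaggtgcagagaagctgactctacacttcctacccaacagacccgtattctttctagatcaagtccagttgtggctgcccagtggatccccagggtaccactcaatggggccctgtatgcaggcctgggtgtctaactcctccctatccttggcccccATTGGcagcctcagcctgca
The Apoe stretch held none of these 5 motifs and has no capitals. The Slc1a3 stretch held the letters of the TATA box on the opposite strand, 161 bases before the start. It also held a GC box, a STAT motif 96 bases before the start, and 3 CCAAT boxes. The S100b stretch held 2 CCAAT boxes. Of 32817 such stretches in the table, 12.4% held the TATA box, 32.7% the GC box, 33.8% the CCAAT box, 7.0% the STAT motif and 9.4% the SOX motif. RefSeq's table matched 8 of the 10 genes, all but Aqp4 and Sox9, and its start sites for Slc1a2 and Aldh1l1 lay 47779 and 64366 bases from the 5' end of the GENCODE gene. A match of letters is a description of the sequence and no evidence that a factor binds there.

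The 12 libraries held 31745630 to 45142355 estimated reads on genes, and no pair was a repeat of one library: over all 66 pairs, the mean chi-square per gene was at least 17.5. Every astrocyte gene was well covered, from 635 to 1199 reads for Sox9 to 45679 to 79016 reads for Slc1a2, so that counting error was small beside the differences between mice. Levels are given as CPM, the reads of a gene relative to all reads of its library, scaled by TMM, a factor that evens out library composition. All 10 genes were detected in all 12 mice, and no marker of another cell type was at 0 throughout. Per kilobase of exon, a scale that allows genes to be compared, Apoe stood highest at 668 ± 94.6 CPM per kb (SD, n = 11 mice with a state), followed by Glul at 302 ± 44.3 and Slc1a2 at 127 ± 19.9. S100b (71.1 ± 8.79) and Slc1a3 (64.5 ± 11.5) came next and overlapped in range. Gfap (29.9 ± 7.82), Gja1 (19.0 ± 2.56), Aqp4 (16.8 ± 3.50) and Aldh1l1 (10.4 ± 0.867) formed a chain in which each overlapped its neighbor, and Sox9 was lowest at 5.31 ± 0.721. The ranges of Apoe, Glul, Slc1a2 and Sox9 overlapped with none of the other genes.

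The first question was whether the transporters and enzymes of glutamate uptake differ with the predicted anxiety state. Slc1a3, the GLAST transporter, had the largest difference of the 10 genes. It measured 644, 769 and 600 CPM in the less anxious mice 3, 7 and 12. In the anxious mice 1, 4, 8 and 11 it measured 616, 515, 468 and 551 CPM, and in the more anxious mice 2, 6, 9 and 10 it measured 506, 483, 441 and 467 CPM. Every more anxious mouse lay below every less anxious one, while the anxious mice spread over both. Its log2 fold change in more against less anxious mice was −0.50 (SE 0.116, 95% interval −0.75 to −0.25), that in anxious against less anxious mice was −0.31 (SE 0.116) and that in more anxious against anxious mice was −0.19 (SE 0.107). Across the 3 states, the unadjusted p was 0.00277 and the adjusted p 0.492 by edgeR's quasi-likelihood F test over 26963 genes, so Slc1a3 was not called. The likelihood ratio test of DESeq2, the tool the study used, called it at an adjusted p of 0.0293, as it called 197 of 15107 genes (1.3%). Without mouse 7, its log2 fold change in the edgeR fit was −0.34, at an unadjusted p of 0.0525.

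Slc1a2, the GLT-1 transporter that takes up most synaptic glutamate in the forebrain, measured 2145, 2000.1 and 1725 CPM in the less anxious mice 3, 7 and 12. It measured 1891, 1613, 1238 and 1432 CPM in the anxious mice 1, 4, 8 and 11, and 1633, 1564, 1488 and 1598 CPM in the more anxious mice 2, 6, 9 and 10. The more anxious mice again lay below all less anxious ones, and within a range narrower than that of the other groups, but the lowest level was that of mouse 8, an anxious mouse. The log2 fold change in more against less anxious mice was −0.29 (SE 0.133, 95% interval −0.58 to −0.0027), with an adjusted p of 0.814 across the states in edgeR. Glul, which makes glutamine from the glutamate taken up, measured 1027, 1200.4 and 1059 CPM in the less anxious mice, 1239, 967, 776 and 951 CPM in the anxious mice, and 1158, 861, 915 and 899 CPM in the more anxious mice, in the same orders. The groups overlapped through mice 1 and 2, and the fold change between these groups was −0.18 (SE 0.148), which was −0.020 without mouse 7 and −0.27 without mouse 2.

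**Figure D1:**
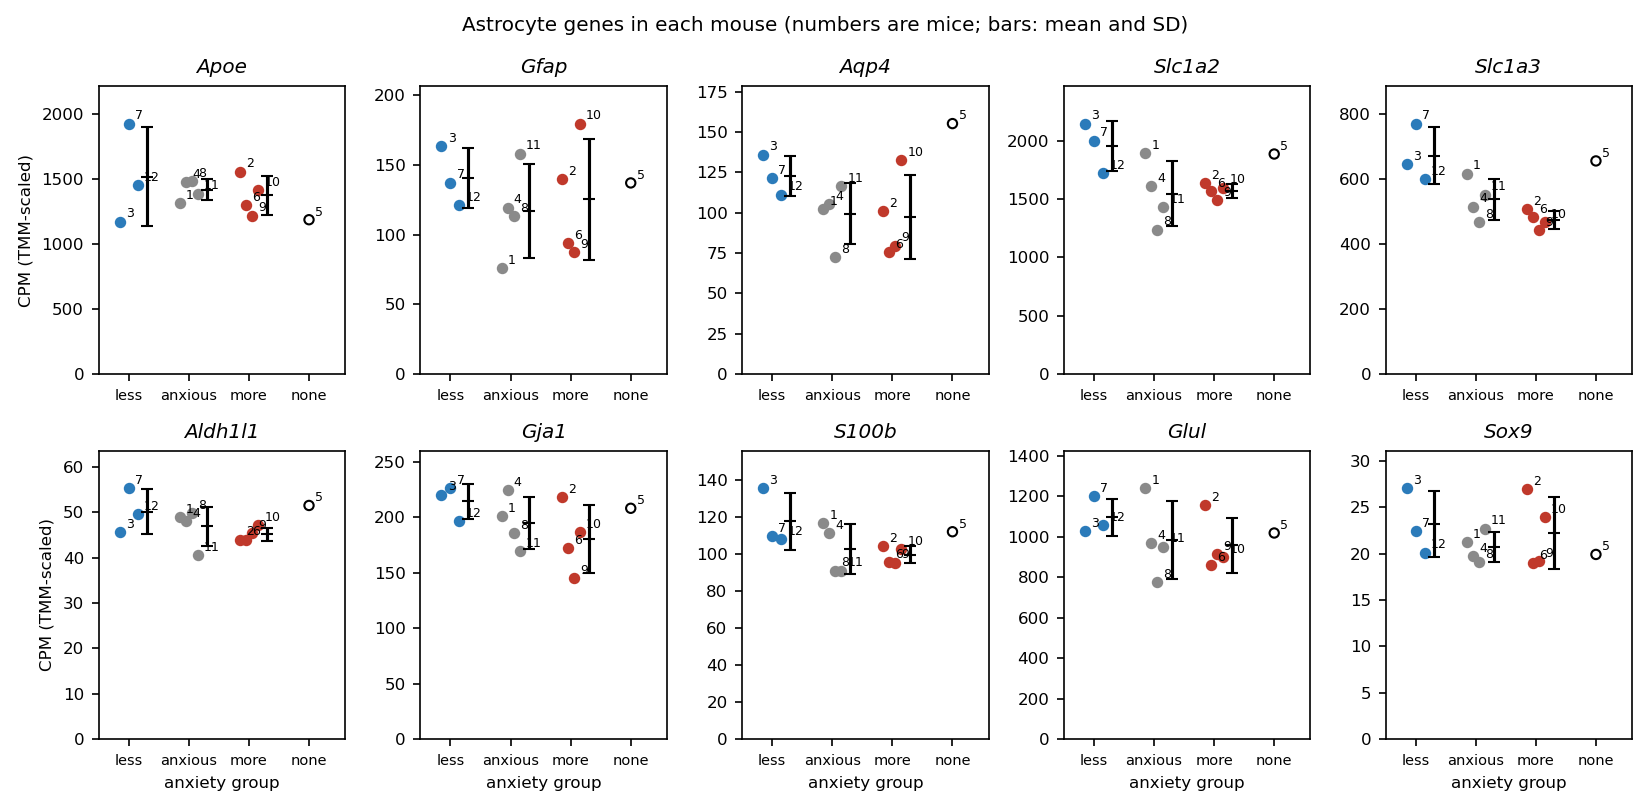
Each panel plots 1 gene in CPM (TMM-scaled, vertical axis from 0) against the anxiety group, with 1 numbered point per mouse, the mean and SD of each group in black, and mouse 5, which has no state, as an open point. For Slc1a3 the 4 more anxious mice lie at 441 to 506 CPM and the 3 less anxious mice at 600 to 769 CPM, while for Apoe the less anxious mice alone span 1172 to 1923 CPM.

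Apoe showed no separation of the states. It measured 1172, 1923 and 1454 CPM in the less anxious mice 3, 7 and 12, which held both the lowest and the highest level of all 12 mice. The anxious mice 1, 4, 8 and 11 measured 1317, 1476, 1484 and 1386 CPM, and the more anxious mice 2, 6, 9 and 10 measured 1556, 1299, 1217 and 1415 CPM. Both groups lay inside the range of the less anxious mice. The log2 fold change in more against less anxious mice was −0.17 (SE 0.120, 95% interval −0.43 to 0.086), and the adjusted p across the states was 0.945 in edgeR. Mouse 7 carried most of this difference: without it the fold change was −0.018. A correction for GC content moved it the other way, to −0.31, at an unadjusted p of 0.0627. Mouse 7 also had the highest summed level of 9 microglial markers among the 11 mice (397 CPM, against 279 to 355 CPM in the other 10) and of 5 endothelial markers (160 CPM against 84.8 to 135 CPM), and the part of these cells in its Apoe level was not tested. Relative to the mean log2 CPM of the other 9 astrocyte genes, Apoe was lowest in mouse 3 (2.42) and highest in mouse 8 (3.24), and the 4 more anxious mice lay between 2.88 and 3.03.

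The genes of the endfoot, the gap junction and the cytoskeleton overlapped in level between the more and the less anxious mice. Gfap was the most variable of the 10 genes, with a coefficient of variation of 26.1% over 11 mice, against a median of 14.3% over 15892 genes with at least 1 CPM. It measured 163, 137 and 121 CPM in the less anxious mice 3, 7 and 12, 75.8, 119, 113 and 158 CPM in the anxious mice 1, 4, 8 and 11, and 140, 93.8, 87.5 and 179 CPM in the more anxious mice 2, 6, 9 and 10. The highest level was that of a more anxious mouse and the lowest that of an anxious one, a 2.37-fold range, and its fold change (−0.13, SE 0.301) turned to 0.061 without mouse 9. Aqp4, the water channel, measured 136, 122 and 111 CPM in the less anxious mice, 102, 105, 72.5 and 117 CPM in the anxious mice, and 101, 75.7, 79.6 and 133 CPM in the more anxious mice. Mouse 10 alone of the more anxious mice lay among the less anxious ones. Gja1, connexin 43, measured 221, 226 and 196 CPM in the less anxious mice, 201, 225, 186 and 170 CPM in the anxious mice, and 219, 172, 145 and 187 CPM in the more anxious mice, so that mouse 2 lay at the level of the less anxious mice. In the more relative to the less anxious mice, Aqp4 had a fold change of −0.28 (SE 0.172) and Gja1 one of −0.26 (SE 0.135). That of Aqp4 was −0.11 without mouse 7, −0.13 without mouse 9 and −0.45 without mouse 10, and that of Gja1 was −0.16 without mouse 9.

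S100b, the calcium-binding protein, was the third gene whose more anxious mice all lay below the less anxious ones, by a small margin. It measured 135, 110 and 108 CPM in the less anxious mice 3, 7 and 12, 117, 111, 91.0 and 91.0 CPM in the anxious mice 1, 4, 8 and 11, and 104, 95.7, 95.3 and 103 CPM in the more anxious mice 2, 6, 9 and 10. Its fold change was −0.21 (SE 0.114, 95% interval −0.46 to 0.036), and −0.11 without mouse 3. The S100b gene overlaps Dip2a, a gene at 65.0 CPM, but on the opposite strand, and the kit was stranded. Of the genes that overlap one of the 10 on the same strand, the highest was Gm37310, over Slc1a3, at 1.12 CPM. Aldh1l1, the folate enzyme, was the steadiest of the 10 genes, at a coefficient of variation of 8.31%, and lay between 40.5 CPM in mouse 11 and 55.2 CPM in mouse 7. Sox9, the glial transcription factor, measured 27.0, 22.5 and 20.1 CPM in the less anxious mice, 21.2, 19.8, 19.1 and 22.7 CPM in the anxious mice, and 27.0, 18.9, 19.2 and 24.0 CPM in the more anxious mice. Its fold change was −0.021 (SE 0.141), which turned positive when any of mice 3, 6, 7 and 9 was left out.

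All 10 point estimates of more against less anxious mice were below 0, with a median of −0.19 against 0.0036 over all genes tested. All 10 were also below 0 in anxious against less anxious mice (median −0.15), and 7 of 10 in more anxious against anxious mice (median −0.042). These comparisons share mice, and the 10 genes vary together across mice, so their directions are not separate observations. Without mouse 7, the highest of the 11 mice for Apoe, Slc1a3, Aldh1l1 and Gja1, the median was −0.12. No gene of the 10 reached an adjusted p of 0.05 in edgeR, where 2 genes of 26963 did (0.00742%). Slc1a3 alone had an unadjusted p under 0.05, which 6.35% of all genes had. The 3 genes without overlap, Slc1a3, Slc1a2 and S100b, compare with 4.21% of all genes lower in every more anxious mouse and 4.34% higher in every one.

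**Figure D2:**
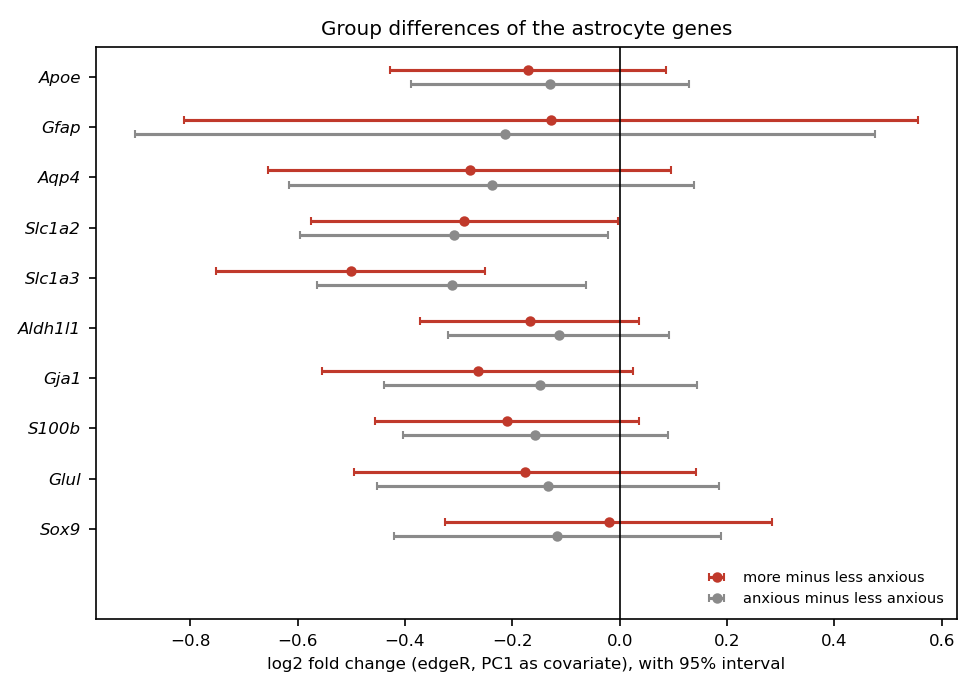
Points give the log2 fold change of each gene in more against less anxious mice (red) and in anxious against less anxious mice (grey) from the edgeR fit, and bars the 95% interval. All 20 points lie below 0. Of the red intervals, those of Slc1a3 (−0.75 to −0.25) and, by a narrow margin, Slc1a2 (−0.58 to −0.0027) exclude 0.

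Markers of other cells were measured beside the astrocyte genes. The summed level of the 10 astrocyte genes was 5444 to 6565 CPM in the less anxious mice, 4497 to 5629 CPM in the anxious mice and 4533 to 5487 CPM in the more anxious mice. The summed level of 8 neuronal markers was 4619 to 4901 CPM in the less anxious mice, 4608 to 5263 CPM in the anxious mice and 4709 to 5758 CPM in the more anxious mice. In more against less anxious mice 4 of 8 were higher: Rbfox3 (log2 fold change 0.30), Snap25 (0.31), Syt1 (0.032) and Slc17a7 (0.44). The 4 lower were Slc17a6 (−0.091), Gad1 (−0.10), Gad2 (−0.32) and Slc32a1 (−0.18). Among the other cell types, most markers had point estimates below 0, as the astrocyte genes did. All 9 microglial markers were lower in more against less anxious mice (338 to 397 CPM in less anxious, 300 to 352 CPM in anxious and 279 to 355 CPM in more anxious mice). All 5 endothelial markers were lower too (109 to 160, 85.3 to 135 and 84.8 to 103 CPM), as were all 7 oligodendrocyte markers (2684 to 3513, 1643 to 3256 and 2162 to 2955 CPM) and all 4 markers of pericytes and smooth muscle (118 to 159, 88.9 to 123 and 101 to 135 CPM). Both markers of oligodendrocyte precursors were lower (82.0 to 110, 79.7 to 94.2 and 72.0 to 88.5 CPM), as were all 4 markers of amygdala nuclei (124 to 198, 97.1 to 188 and 88.8 to 198 CPM, with a median fold change of −0.23). Of 5 markers of meningeal fibroblasts, 4 were lower (104 to 174, 42.1 to 152 and 64.6 to 174 CPM) and Dcn, a collagen-binding proteoglycan, was higher. Blood markers went the other way, with 2 of 3 higher in the more anxious mice (36.7 to 58.2, 30.9 to 59.7 and 31.2 to 57.6 CPM). None of these markers was called after adjustment. Markers of choroid plexus, which makes Apoe, summed to 24.1 CPM at most, and 4 of its 5 were lower in more against less anxious mice. Markers of the ependyma, which makes Gfap and Sox9, summed to 12.3 CPM at most, with 2 of 3 lower. The 3 pituitary markers summed to 2.06 to 3.67 CPM in the less anxious mice, 1.87 to 55.3 CPM in the anxious mice and 1.10 to 1.64 CPM in the more anxious mice. The part of these cells in the astrocyte differences was not tested.

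**Figure D3:**
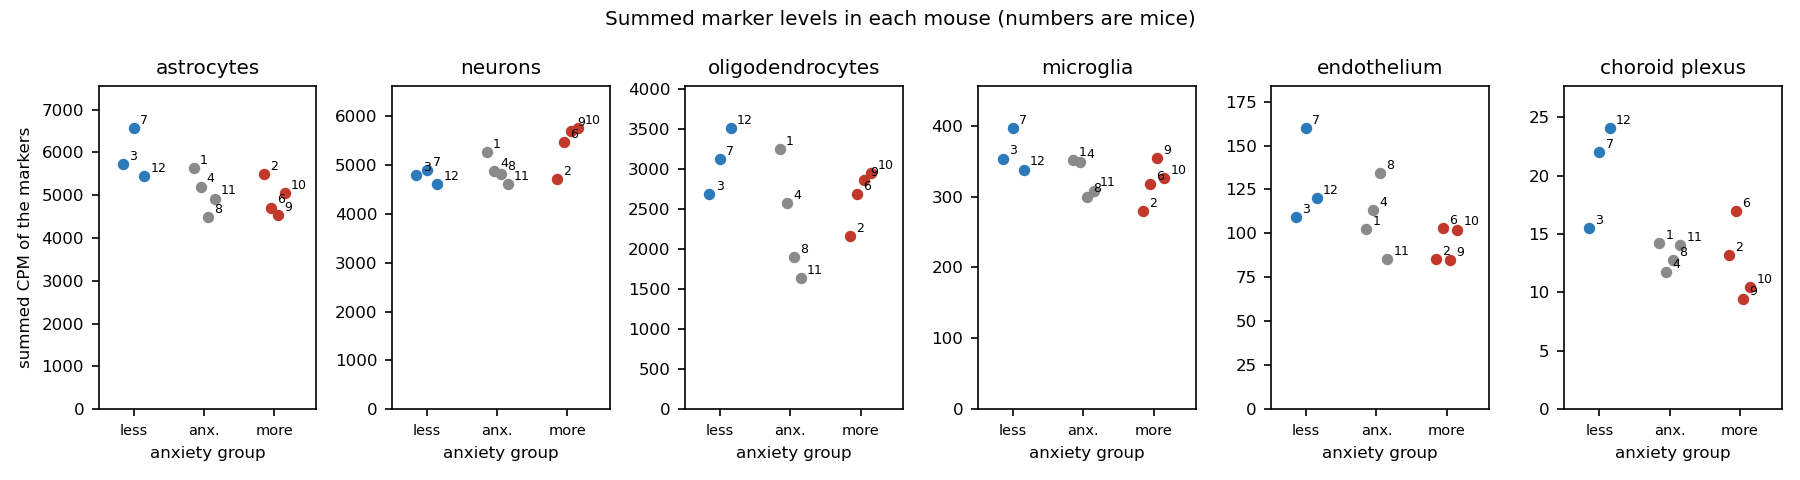
Each panel plots the summed CPM of the markers of 1 cell type (vertical axis from 0) for the 11 mice with a state, numbered and set by group. The astrocyte sum reaches 6565 CPM in mouse 7, and the more anxious mice lie at 4533 to 5487 CPM, while 3 of the 4 more anxious mice have the highest neuronal sums, up to 5758 CPM.

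The partners of the 10 genes were followed in lists by function. None of the listed genes was called at an adjusted p of 0.05 in edgeR. Of all genes tested, 13617 of 26963 had a point estimate above 0 and 6.35% an unadjusted p under 0.05. Of 31 other astrocyte genes, 23 had a point estimate below 0 in more against less anxious mice, with a median of −0.18, and 5 had an unadjusted p under 0.05 across the states. Slc4a4, the sodium bicarbonate cotransporter of astrocytes, averaged 129 ± 9.76 CPM (SD, n = 3) in less anxious, 99.6 ± 18.4 CPM (n = 4) in anxious and 95.9 ± 5.01 CPM (n = 4) in more anxious mice, a fold change of −0.41 (SE 0.122, adjusted p across the states 0.619). Acsbg1, an acyl-CoA synthetase, averaged 140 ± 15.1, 118 ± 8.83 and 118 ± 3.79 CPM, a fold change of −0.27 (SE 0.0926). The other 3 with such a p were Ppp1r3c (−0.42) and Slc6a11 (−0.35), a regulator of glycogen and the GABA transporter GAT-3, and Mt3 (0.46), a metallothionein and the only one of the 5 above 0. These 3 were named after their values were seen.

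Of 13 partners in the glutamate-glutamine cycle, 11 lay below 0 (median −0.11) and 2 had an unadjusted p under 0.05. The smallest p-values were those of Glud1, glutamate dehydrogenase, and Grm3, a metabotropic glutamate receptor of astrocytes and neurons. Glud1 averaged 255 ± 16.6 CPM in less anxious, 207 ± 19.2 CPM in anxious and 193 ± 10.1 CPM in more anxious mice, a fold change of −0.38 (SE 0.0961, adjusted p 0.525). Every less anxious mouse, from 245 CPM up, lay above every other mouse with a state, the highest of which was at 223 CPM. Glud1 was picked by its p across these same states. The share of all genes separated in this way was not taken. Grm3 had a fold change of −0.32 (SE 0.122). Of 13 partners of the endfoot and gap junction, 11 lay below 0 (median −0.17), and 1 had an unadjusted p under 0.05. Without mouse 7 the median was −0.047, and without mouse 9 it was −0.088. Slc4a4 belongs to this list as well and led it, followed by Kcnj10, the inward rectifier that buffers potassium, at 105 ± 5.91, 86.0 ± 17.7 and 81.4 ± 8.79 CPM (fold change −0.36, SE 0.139).

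Of 22 genes that act with Apoe in lipoprotein and cholesterol transport, 14 lay below 0 and 8 above (median −0.11), and 2 had an unadjusted p under 0.05. The median was −0.016 without mouse 7 and −0.046 without mouse 2. Soat1, which esterifies cholesterol for storage, averaged 44.5 ± 16.1 CPM in less anxious, 35.4 ± 6.48 CPM in anxious and 28.6 ± 5.53 CPM in more anxious mice, a fold change of −0.69 (SE 0.165, adjusted p 0.508), and was highest in mouse 7, at 62.4 CPM. Cyp46a1, the neuronal enzyme that clears brain cholesterol by hydroxylation, lay the other way, at 214 ± 18.5, 231 ± 6.68 and 264 ± 21.1 CPM (fold change 0.30, SE 0.0934, adjusted p 0.674). Its 4 more anxious mice, from 249.9 CPM up, lay above all others. Cyp46a1 too was picked by its p across the states, and the share of all genes separated in this way was not taken. Of 37 genes of reactive astrocytes, 24 lay below 0 (median −0.18) and 1 had an unadjusted p under 0.05. Leaving out mouse 6, 9 or 12 moved the median to −0.082, −0.090 or −0.097. The smallest p-values in that list belonged to genes with few reads: C3, a complement component, averaged 1.20 ± 0.827 CPM in less anxious and 0.286 ± 0.229 CPM in more anxious mice (fold change −2.14, SE 0.635, adjusted p 0.679), and Cd109 averaged 1.61 ± 0.212 and 1.02 ± 0.265 CPM. C3 is also made by microglia and other cells. Of 13 glial transcription factors, 8 lay above 0 (median 0.15, ranging from 0.052 without mouse 12 to 0.28 without mouse 3), and 1 had an unadjusted p under 0.05. Hes1, a target of Notch, averaged 4.63 ± 0.996 CPM in less anxious, 5.58 ± 2.37 CPM in anxious and 8.34 ± 1.91 CPM in more anxious mice (fold change 0.75, SE 0.223, adjusted p 0.508), and Lhx2 averaged 41.0 ± 17.6, 51.2 ± 9.82 and 59.9 ± 7.71 CPM (0.50, SE 0.190).

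The second question was how the genes relate to one another across mice. Over the 11 mice with a state, the 45 pairs had a median Pearson r of 0.50 on log2 CPM, and 41 pairs lay above 0. These correlations are descriptions, since all genes of a mouse share its dissection, library and scaling. The highest was that of Slc1a2 and S100b (0.90), and Slc1a2 also varied with Slc1a3 (0.79) and Glul (0.76), as Slc1a3 did with Glul (0.73). Gfap, Aqp4 and Sox9 also varied together, with r of 0.71 for Gfap and Aqp4, 0.71 for Aqp4 and Sox9, and 0.69 for Gfap and Sox9, while Gfap varied little with Slc1a2 (0.13) or Glul (−0.044). Aqp4 and Sox9 were not separate from the transporters: Aqp4 had r of 0.66 with Slc1a2, 0.62 with S100b and 0.59 with Slc1a3, and Sox9 had r of 0.51 with both Slc1a2 and S100b. For Apoe the highest r was with Aldh1l1 (0.60), that with Slc1a2 was 0.039, and the median r with the other 9 genes was 0.25, next to 0.17 for Gfap and 0.61 for Slc1a2.

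**Figure D4:**
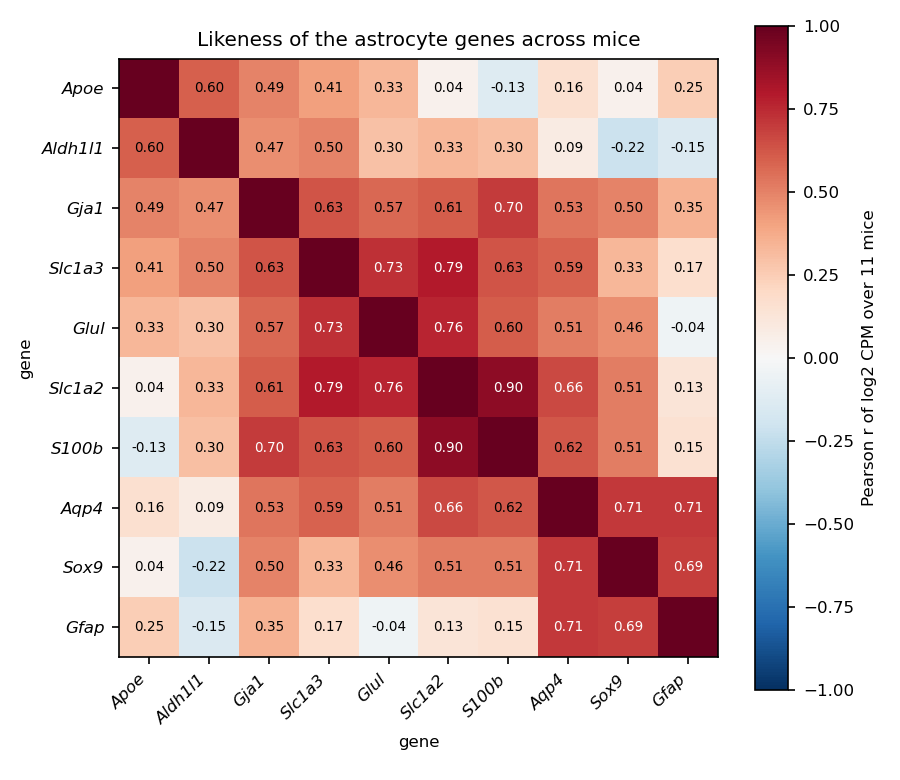
The color and number in each cell give Pearson's r of log2 CPM between a pair of genes over 11 mice, on a scale from −1 (blue) to 1 (red). Slc1a2, S100b, Slc1a3 and Glul form a block of high values up to 0.90, Aqp4, Sox9 and Gfap reach 0.69 to 0.71 among themselves, Aqp4 also reaches 0.66 with Slc1a2, and the row of Apoe stays at or below 0.60.

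Among 15882 other genes with a mean of at least 1 CPM, those most like the mean standardized level of the 10 genes over the 11 mice were Gpc5 (r = 0.92), Vcam1 (0.92), Slc16a1 (0.92), Dio2 (0.91) and Lrp4 (0.91). Gpc5, a glypican, and Dio2, the deiodinase that makes active thyroid hormone, belong to the list of other astrocyte genes. Slc16a1 encodes a lactate transporter, Vcam1 an adhesion molecule and Lrp4 a receptor of the LDL receptor family. Among those most like Apoe were Lrp5 (0.92), a coreceptor of Wnt, and Cdh13 (0.89), a cadherin, and neither was on a list. These are the highest of many correlations over few mice.

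The third question was whether the genes follow the behavior measured before the tissue was taken, which does not come from expression. The labels give 7 measures: the percent of time and of distance in the light side of the light/dark box, the percent of time in open arms and the total entries in the maze, and the box:zone ratio of the social test after 3, 5 and 10 min. The box is the place beside the stranger mouse and the zone the more distant part of its chamber, so that a higher ratio stands for more time in direct contact relative to distant company. No gene of the 10 reached an adjusted p of 0.05 on any measure. The single relation with an unadjusted p under 0.05, of 70 computed, was that of Apoe with the ratio at 3 min: its level fell by 0.15 on the log2 scale per SD of the ratio (SE 0.0491, 95% interval −0.26 to −0.048, unadjusted p = 0.00756 and adjusted p = 0.438 by edgeR, 10 mice, as mouse 4 has no value). In the same fit, 7.65% of all genes had an unadjusted p under 0.05. Mouse 7 had the lowest ratio, 0.236, and the highest Apoe level, 1923 CPM, while mice 9 and 3 had the highest ratios, 1.84 and 1.70, and the lowest levels among these mice, 1217 and 1172 CPM. Without mouse 7 the slope was −0.086, at an unadjusted p of 0.119. With mouse 5 added (ratio 0.832, 1186 CPM) it was −0.14. At 5 and 10 min the slopes of Apoe were −0.10 (SE 0.0559) and −0.098 (SE 0.0560).

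**Figure D5:**
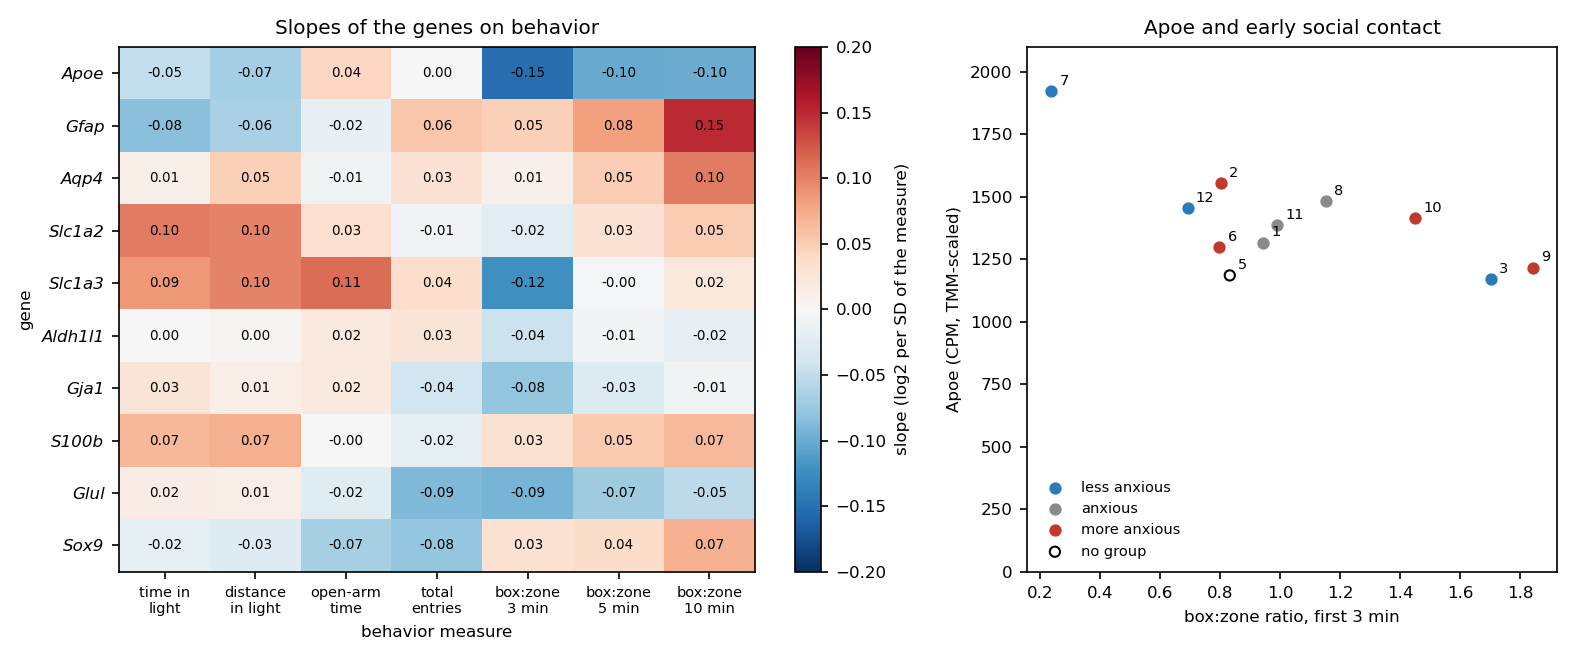
Left, the slope of each gene on each of 7 behavior measures, in log2 units per SD of the measure, from blue (below 0) to red (above 0). Right, the Apoe level in CPM (vertical axis from 0) against the box:zone ratio of the first 3 min, with 1 numbered point per mouse. The strongest cell among the Apoe slopes is −0.15 at 3 min, and mouse 7 lies alone at the upper left, at a ratio of 0.236.

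The other slopes lay on both sides of 0. The largest was that of Gfap on the ratio at 10 min, 0.15 (SE 0.101, 95% interval −0.071 to 0.37), of the same size as that of Apoe at 3 min but with a wider error. Slc1a3 had a slope of −0.12 (SE 0.0660) on the ratio at 3 min and Aqp4 one of 0.10 (SE 0.0798) on that at 10 min. On time in light and distance in light, Slc1a2 had slopes of 0.10 and 0.099 and Slc1a3 of 0.086 and 0.099. Those of S100b were 0.066 and 0.072. The 95% interval of each of these slopes spanned 0. On open-arm time the slope of Slc1a3 was 0.11 (SE 0.0667). None of these had an unadjusted p under 0.05, a level that 3.55% of all genes reached on time in light, 5.8% on distance, 5.84% on open-arm time, 6.97% on entries, 6.56% on the ratio at 5 min and 8.05% at 10 min. Mouse 6 weighed on these slopes: it is a more anxious mouse by its state, yet it spent the most time in the light (46.6%) and in the open arms (29.2%) of the 12 mice. Without mouse 6, 8 relations of the 70 had an unadjusted p under 0.05. In the same fits the share of all genes was 10.1% for time in light, 10.8% for distance, 6.74% for open-arm time, 6.51% for entries, and 6.99%, 6.29% and 7.45% for the ratio at 3, 5 and 10 min. In the light/dark box these were the time in light with S100b (slope 0.14), Slc1a3 (0.19), Slc1a2 (0.17) and Aqp4 (0.17), and the distance with Slc1a3 (0.15) and S100b (0.11). The others were open-arm time with Slc1a3 (0.16) and the 3-min ratio with Apoe (−0.18). The smallest adjusted p among the 8 was 0.260. With PC1 as a covariate, the 3-min ratio had slopes of −0.22 on Slc1a3 and −0.19 on Glul beside −0.13 on Apoe (adjusted p 0.395 to 0.551, edgeR). Without mouse 3, these were −0.20 for Slc1a3, −0.15 for Gja1 and −0.14 for Apoe (adjusted p 0.419 to 0.599, edgeR). With ranks, time in light had a slope of 0.14 with both Slc1a2 and Slc1a3. Sox9 had one of 0.13 on the 10-min ratio without mouse 2, and Apoe one of −0.13 on the 5-min ratio without mouse 8.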

How the data were processed

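Amygdala mRNA of 12 mice was sequenced in one run with a stranded kit and 75-base single reads. Per the labels and methods, the authors used CASAVA, Salmon, DESeq2 and mm10, with versions not given in the sources used here, and deposited estimated counts per gene, which the file holds as whole numbers. Identifiers were matched to GENCODE M21 (99.1% of 47729).

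Genes with at least 10 reads were tested in edgeR 4.0.16 (R 4.3.3; quasi-likelihood F test, robust, TMM) on 11 mice, with PC1 as covariate for the states, after the study's model but computed here from variance-stabilized counts, and none for behavior, with Benjamini-Hochberg adjustment over all genes. Fits left out 1 mouse at a time or changed scaling, filter, spread, covariate or tool (DESeq2 1.42.0), keeping the PC1 scores. Scripts were tested on simulated data. CPM used factors of all 12 libraries, and log2 CPM a prior count of 2. Each library is 1 mouse.

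The 10 genes and the lists were chosen with earlier results of these data known. All 10 are named, with the 2 genes of smallest unadjusted p per list, the slopes with an unadjusted p under 0.05, and the 5 and 3 genes most alike, of which 1 is not reported here.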

Additional observations from a re-analysis of the deposited data

Results flagged for a closer look

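Aqp4 measured 155 CPM in mouse 5, above all of the other 11 mice, of which the highest was mouse 3 at 136 CPM. Mouse 5, which the study left out as an outlier, has no anxiety state. It entered no comparison of the states, only the behavior fits to which it was added. The other 9 astrocyte genes of mouse 5 lay within the range of the 11 mice. Within the states, 20 groups of 4 mice were examined for a single mouse far from the rest, and none met Dixon's criterion. The less anxious group, with 3 mice, was not examined in this way.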

How the results depend on the processing

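Over 19 other settings, the fold change of more against less anxious mice kept its sign for 8 of the 10 genes, and only DESeq2 called one, Slc1a3 (1 gene, at an adjusted p of 0.0293). With 1 mouse left out, Gfap ranged from −0.36 to 0.061 and Sox9 from −0.12 to 0.090, Apoe from −0.26 to −0.018 and Slc1a3 from −0.58 to −0.34. The number of the 10 genes with an unadjusted p under 0.05 across the states, 1 in the fit reported, was 2 with library totals in place of TMM (Slc1a2 added) and 0 to 2 with 1 mouse left out, 0 only without mouse 7. For the genes of the lists it was 11, and 7 to 19 with 1 mouse left out, 7 without mouse 7. The lists held 31, 22, 13, 13, 37 and 13 genes, some of them on more than 1 list. Of all genes tested, 6.35% had such a p in the fit reported. That share was not taken in the other fits, so these counts are not compared with all genes there. The number of relations between gene and behavior with such a p was 1 of 70. It was 3 with PC1 as a covariate and 3 with ranks of the measure. With 1 mouse left out it was 1 to 8, 8 without mouse 6. Of all genes, 3.55% to 8.05% had such a p on a measure in the fits reported, and 6.29% to 10.8% without mouse 6. The share was not taken in the other fits, so a change in count is not read as a result about the 10 genes. Without mouse 7 the 1 relation was that of Slc1a3 with the distance in light (0.12) in place of Apoe. The causes of these changes were not tested. No paired analysis was possible because the numbers of the mice pair no samples between groups. Groups of 3 and 4 mice limit the precision: the 95% interval of Apoe in more against less anxious mice runs from −0.43 to 0.086. Some listed genes also had few reads, such as C3, whose fold change had an SE of 0.635.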
